A study of Mus musculus with 7 samples.

Results

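Germline genes are taken here as genes active in sperm and egg precursors, which need not be their main place of use (Dppa2 and Dppa4). The 9 described here across a light time course are also transcribed in naive embryonic stem cells: Stra8, Sycp3, Dazl, Mael, Tex19.1, D1Pas1, Dppa2, Dppa4 and Dppa3. They were picked by name, with their levels in these libraries already known, so how they move with time is a description and no test is read for them. The 9 are among 20294 genes in the table, of which 17842 were above 0 in at least 1 library. The RNA came from the mouse embryonic stem cell line E14, kept in 2i, a medium whose inhibitors hold the cells in the naive state. All cells carried the Brn2-RFP GAVPO cassette, in which the light-sensitive activator GAVPO switches on a neural POU factor (Brn2, gene Pou3f2) joined to a red fluorescent protein. A single mRNA library was made at each of 7 labelled times under a 300 µW LED: 0, 2, 4, 6, 14, 24 and 48 h. Cells without the cassette, or kept in the dark for the same hours, were not analysed here, so hours of light and hours in culture cannot be told apart.

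In somatic tissues many germline genes are shut by DNA methylation of CpG-rich promoters and by PRC1.6, a Polycomb complex that reaches them through E2F6 and through the E-box binding pair Max and Mga. Cells in 2i have little DNA methylation, and transcripts of several germline genes are known from them. Dppa2 and Dppa4 form a chromatin-binding pair, Dppa3 (Stella) protects the maternal genome from demethylation and limits Uhrf1, and Stra8 drives the entry into meiosis in response to retinoic acid.

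Levels are the deposited signal per kilobase of a gene's genomic span, scaled to library depth, and the number of reads behind each was recovered from it. Implied depth ran from 7.04 M reads at 4 h to 16.1 M at 48 h. With 1 library a time, intervals cover counting error only and not the spread between cultures. Pou3f2 itself, the gene of the cassette's factor, read 77.0, 36.9, 47.3, 96.2, 119, 41.3 and 7.19 at 0, 2, 4, 6, 14, 24 and 48 h, so it was above the 0 h library at 6 and 14 h only and each library is called here by its label. Pluripotency markers stayed high, with a summed signal of 357 to 491, and neuron markers summed to 7.40 at 0 h and 90.0 at 48 h. Primitive endoderm markers summed to 0.645 at 0 h and 5.31 at 48 h, with Foxa2 at 0.115 and 4.62. Gata6 and Sox7 were also higher at 48 h than at 0 h, but Gata4, Sox17 and Dab2 were lower. Fibroblast markers summed to 0.543 at 0 h and 3.28 at 48 h, with Col1a2 at 0.0450 and 2.16 and Thy1 at 0.427 and 1.05. Col1a1 was lower at 48 h, at 0.0238 against 0.0604, and Postn, Dcn and Lum were near 0 in both. Trophoblast markers summed to 0.874 at 0 h and 1.77 at 48 h. Whether these cell types were present, and their part in the members' levels, was not tested. Of 6 markers of postmeiotic male germ cells, Prm1, Prm2, Tnp1 and Tnp2 were at 0 in every library and the sum of all 6 was at most 0.0701.

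Promoters of Sycp3, Mael, Tex19.1 and Stra8 are shown because they differ in the 2 motifs looked for: CACGTG, the E-box read by Max and Mga, and GCGGGA, the core of the E2F6 site, which reads as TCCCGC on the other strand. Both strands were searched from 250 bases before to 50 bases after each RefSeq start on GRCm38.p6, and the 2 motifs cannot overlap by more than a single base. The 250 bases before the start are printed 5′ to 3′ on the gene's strand, with the motifs in capitals. Sycp3 lies on the plus strand at chr10:88459337-88459586, Mael on the minus strand at chr1:166238745-166238994, Tex19.1 on the plus strand at chr11:121145893-121146142 and Stra8 on the plus strand at chr6:34920698-34920947.
Sycp3: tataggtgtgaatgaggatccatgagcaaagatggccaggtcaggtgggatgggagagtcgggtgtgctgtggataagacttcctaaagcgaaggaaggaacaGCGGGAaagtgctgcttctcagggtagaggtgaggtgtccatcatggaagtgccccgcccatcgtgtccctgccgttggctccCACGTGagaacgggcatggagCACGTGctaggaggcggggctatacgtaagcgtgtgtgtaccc
Mael: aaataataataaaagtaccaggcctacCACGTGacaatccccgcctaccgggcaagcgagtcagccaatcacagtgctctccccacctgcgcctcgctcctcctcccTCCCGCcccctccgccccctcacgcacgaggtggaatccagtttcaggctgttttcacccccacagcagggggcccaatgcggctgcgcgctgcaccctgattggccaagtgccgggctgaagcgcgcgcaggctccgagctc
Tex19.1: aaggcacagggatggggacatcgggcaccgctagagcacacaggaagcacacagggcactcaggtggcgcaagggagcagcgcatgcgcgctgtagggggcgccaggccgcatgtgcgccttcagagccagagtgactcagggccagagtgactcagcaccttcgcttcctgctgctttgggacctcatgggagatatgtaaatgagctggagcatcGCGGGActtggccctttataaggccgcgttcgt
Stra8: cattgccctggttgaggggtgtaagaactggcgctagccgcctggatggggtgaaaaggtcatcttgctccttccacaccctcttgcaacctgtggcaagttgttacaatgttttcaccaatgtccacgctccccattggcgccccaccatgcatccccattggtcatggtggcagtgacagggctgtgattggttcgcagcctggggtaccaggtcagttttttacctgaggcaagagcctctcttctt

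Sycp3 held CACGTG at 64 and 43 bases before its start and GCGGGA at 147 before. Mael held CACGTG at 223 bases before, TCCCGC at 143 before and a further GCGGGA 11 bases past the start, outside the printed stretch. Tex19.1 held a single GCGGGA, 33 bases before its start, and D1Pas1 a single GCGGGA, 147 bases before. Neither motif was in the windows of Stra8 and Dazl. Among 32851 promoters of the same length 7.15% held CACGTG, 19.98% held GCGGGA or TCCCGC, and 1.99% held both. Of 61 germline genes outside the 9 with a promoter entry, 20 held CACGTG (32.8%) and 28 held GCGGGA or TCCCGC (45.9%). A match describes letters in a window and does not show binding.

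The ratio of observed to expected CpG was 0.796 in Dazl, 0.780 in Mael, 0.707 in D1Pas1, 0.666 in Sycp3, 0.575 in Tex19.1 and 0.430 in Stra8. The median was 0.384 over all promoters and 0.686 over the 61 other germline genes. All 6 members with an entry were thus above the median promoter, and Stra8 was nearest to it, at percentile 53.5.

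**Figure D1:**
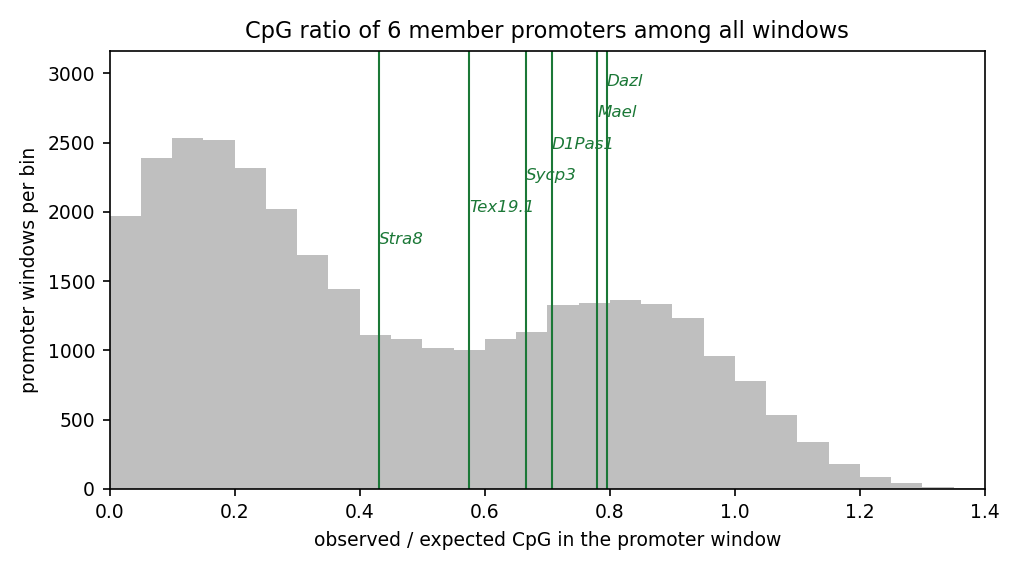
Histogram of the observed to expected CpG ratio (x axis) over all promoter windows (y axis, windows per bin), with a green line for each of 6 members. Stra8 stands lowest of the 6 at 0.430 and Dazl highest at 0.796.

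Stra8 had the steepest course of the 9. Its signal was 1.99, 0.536, 0.564, 0.370, 0.137, 0.0765 and 0.0371 at 0, 2, 4, 6, 14, 24 and 48 h, from 543 reads at 0 h and 11 at 48 h. The 0 h library stood above all the others, the 2 and 4 h libraries were alike within their counting intervals, and the later ones were lower again. At 48 h the level was 53.7-fold lower than at 0 h (ratio 0.0186, 95% counting interval 0.00925 to 0.0336). The ratio of 2 h to 0 h was already 0.269 (0.209 to 0.343), and that of 48 h to 2 h was 0.0692 (0.0331 to 0.131), so the levels differed without the 0 h library too. In bulk RNA fewer cells with a transcript and less of it per cell cannot be told apart, for Stra8 or any other member. For scale, of 1093 olfactory receptor genes, looked at after the values were seen, 1008 to 1060 were at 0 in a given library.

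Sycp3, a lateral-element protein of the synaptonemal complex that joins paired chromosomes in meiosis, read 0.527, 0.250, 0.531, 0.337, 0.0724, 0.243 and 0.0635, from 9 to 107 reads. The 0 and 4 h libraries were alike and the 14 and 48 h libraries were lowest, so the order did not follow the hours. The ratio of 48 h to 0 h was 0.121 (0.0637 to 0.211). Sycp3 overlaps Chpt1, with which 35.8% of its 50-base stretches are shared, and reads of the pair may have been split.

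Dazl, an RNA-binding protein that germ cells need to enter their programme, read 3.99, 1.36, 1.87, 1.97, 1.74, 1.74 and 1.76. The 0 h library was high and the other 6 lay between 1.36 and 1.97. These were not flat: counting intervals were 1.15 to 1.59 at 2 h and 1.78 to 2.18 at 6 h. The ratio of 48 h to 0 h was 0.442 (0.392 to 0.498), while that of 48 h to 2 h was 1.30 (1.07 to 1.58). Its fitted change over the course, -0.59 ± 0.37 (SE, log2 scale, 7 libraries), became 0.14 without the 0 h library.

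D1Pas1, a DEAD-box RNA helicase of the testis encoded by a single exon, was also highest at 0 h, at 25.2, 6.62, 9.38, 11.4, 10.2, 11.4 and 7.31. Unlike Dazl, it was lower at 48 h (counting interval 6.59 to 8.09) than at 24 h (10.3 to 12.6). The 0 h library was 3.45-fold above the 48 h library and 3.81-fold above the 2 h library, and the ratio of 48 h to 2 h was 1.104 (0.916 to 1.34). Without the 0 h library its fitted change went from -0.96 ± 0.63 to 0.16. Its X-linked relative Ddx3x, 85.3% identical over 2497 aligned bases, read 40.3, 43.5, 40.3, 19.24, 37.9, 35.0 and 13.1, with no step between 0 and 2 h. The only gene sharing 50-base stretches with D1Pas1 was Gm37912, with 4.40% of them.

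Tex19.1, which limits retrotransposons in germ cells and placenta, was the most abundant member and went up and down: 116, 50.1, 71.8, 118, 85.4, 22.1 and 18.7. The 0 and 6 h libraries were alike (ratio 1.01, 0.966 to 1.06), the 2 h library lay well below both, and the 24 and 48 h libraries were lowest. The ratio of 48 h to 0 h was 0.161 (0.148 to 0.175), and that of 48 h to 2 h was 0.373 (0.336 to 0.414). Its neighbour and paralogue Tex19.2 on chromosome 11 read 2.78, 1.12, 2.08, 5.19, 0.848, 0.530 and 0.402. Unlike Tex19.1, Tex19.2 was higher at 6 h than at 0 h (ratio 1.87, 1.45 to 2.40). The 2 are 75.7% identical over 1197 aligned bases but share only 2.95% of the 50-base stretches of Tex19.1.

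Mael, a protein of the piRNA pathway that silences transposons, was low by span at 0.369, 0.179, 0.198, 0.201, 0.244, 0.140 and 0.0878, from 51 to 205 reads. It was highest at 0 h and lowest at 48 h, with a ratio of 0.238 (0.172 to 0.323) between them. The libraries from 2 to 14 h overlapped in their counting intervals.

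**Figure D2:**
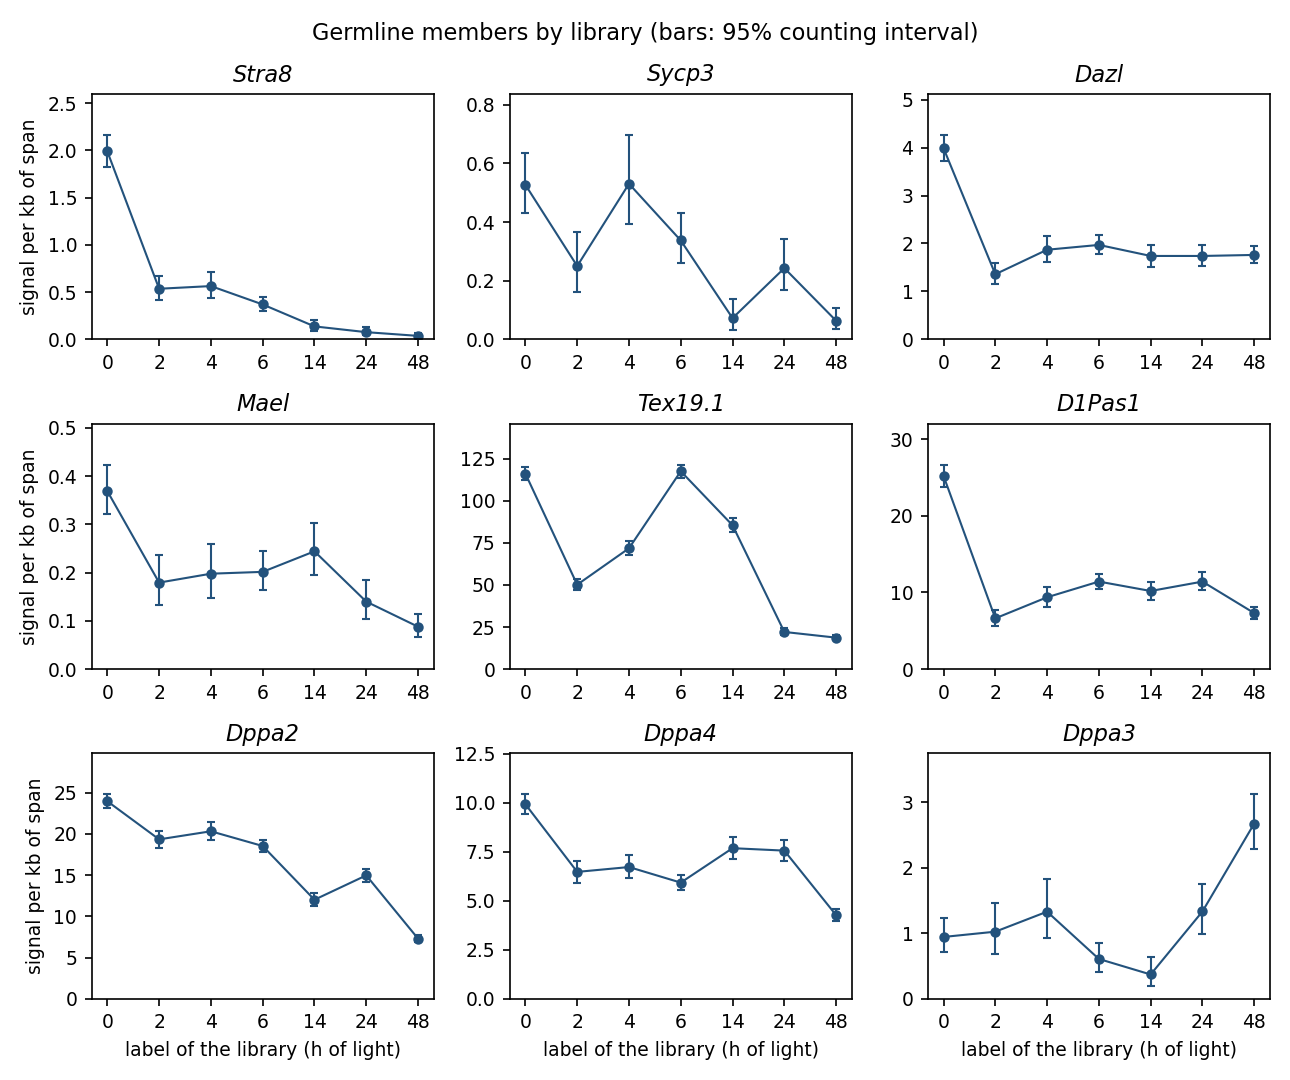
Signal per kilobase of genomic span, scaled to library depth (y axis, from 0) in each library (x axis, labelled hours of light, evenly spaced) for the 9 members, with 95% counting intervals as bars. Stra8 goes from 1.99 to 0.0371, Dazl and D1Pas1 step down after 0 h, Tex19.1 is as high at 6 h as at 0 h, and Dppa3 is highest at 48 h.

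Dppa2 and Dppa4 lie side by side on chromosome 16 with no protein-coding gene starting between them. Dppa2 read 23.9, 19.3, 20.3, 18.5, 12.0, 14.96 and 7.30, a graded course in which the 2, 4 and 6 h libraries were close together and the 48 h library was lowest. Its ratio of 48 h to 0 h was 0.305 (0.284 to 0.326) and that of 48 h to 2 h was 0.378 (0.348 to 0.409). Dppa4 read 9.93, 6.48, 6.73, 5.93, 7.69, 7.56 and 4.27, lower at 2 to 6 h than at 14 and 24 h, with a ratio of 48 h to 0 h of 0.430 (0.393 to 0.470). The pair thus differed in the middle of the course, where Dppa2 was lower at 14 h than at 6 h and Dppa4 was higher. Of their 50-base stretches 36.7% and 35.9% are shared with other genes, mostly the Gm9788 and Gm14058 copies, so both levels are uncertain to that extent.

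Dppa3 went the other way. It read 0.943, 1.02, 1.33, 0.608, 0.371, 1.33 and 2.67, from 13 reads at 14 h to 167 at 48 h. The 48 h library was above all the others, 2.83 times the 0 h library (2.08 to 3.94), and the 14 h library was lowest. Without the 48 h library its fitted change went from 0.56 ± 0.54 to -0.13. Of its 50-base stretches 17.7% are shared, mostly with Dppa3-ps.

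**Figure D3:**
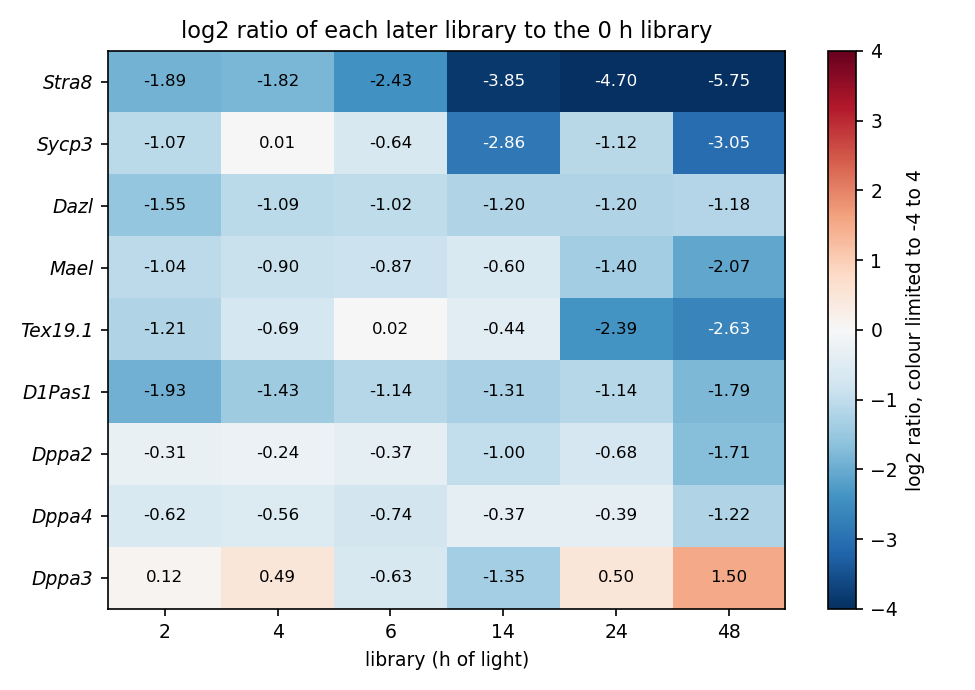
Log2 ratio of each later library (columns) to the 0 h library for the 9 members (rows), blue for lower and red for higher. Stra8 reaches -5.75 at 48 h, and Dppa3 is the only member above 0 at 48 h, at 1.502.

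To compare members with each other, the signal was rescaled to the length of the spliced transcript. On that scale the mean level over the 7 libraries was 85.9 for Tex19.1, 78.9 for Dppa2 and 49.3 for Dppa4, then 11.7 for D1Pas1, 9.86 for Dazl, 6.69 for Stra8, 5.48 for Dppa3, 4.90 for Mael and 3.47 for Sycp3. Tex19.1, Dppa2 and Dppa4 formed an upper group in the mean, but at 24 and 48 h Tex19.1, at 27.5 and 23.3, was below both Dppa2 and Dppa4. Neighbours from D1Pas1 down to Sycp3 had ranges over the libraries that overlapped. At 0 h Stra8, at 25.1, stood level with D1Pas1 at 25.2, and at 48 h it was the lowest of the 9 at 0.468.

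**Figure D4:**
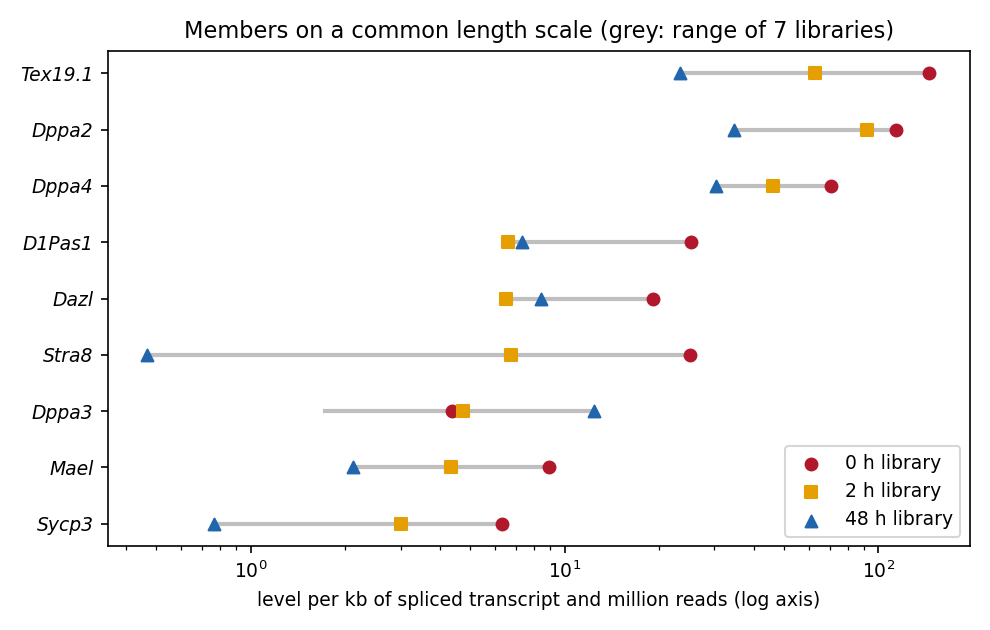
Level per kilobase of spliced transcript, scaled to library depth (x axis, log scale) of each member in the 0, 2 and 48 h libraries, with the range over the 7 libraries in grey. Stra8 has the widest range, 0.468 to 25.1, and D1Pas1 and Dazl have their 2 h point below their 48 h point.

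Between members, the correlation of log2 levels over the 7 libraries was highest for Dazl with D1Pas1 (Pearson r 0.94), Dppa2 with Sycp3 (0.88) and Dppa4 with Mael (0.85). Dppa3 was negatively correlated with each of the other 8, from -0.11 with Dazl to -0.78 with Tex19.1. These values share 7 libraries and their depth and are given as a description. Outside the 9, the genes whose course was most like the mean of the members with a mean signal of at least 1 were Olfr613 (r 0.988), Acot2 (0.984), Zfp488 (0.983), Spc25 (0.979) and Zfp143 (0.978), over 7 libraries. That mean takes in Dppa3 and leaves out Stra8, Mael and Sycp3. Olfr613 is an olfactory receptor gene but read 47.4 at 0 h and 12.1 at 48 h.

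Most members were lowest at 48 h or highest at 0 h, and these extremes were also common among all genes. Of the 9, 6 were highest at 0 h, where 20.7% of 13438 genes with enough reads were, and 6 were lowest at 48 h, where 23.5% were. At 2 h, 6 of 9 were at least 2-fold below 0 h, against a background of 11.5%, and at 48 h 8 of 9 were, against 16.4%. Between these times the count was 3 at 4 h (background 3.8%), 3 at 6 h (4.52%), 5 at 14 h (9.48%) and 6 at 24 h (11.1%). Measured from the 2 h library instead, 5 of 9 were at least 2-fold lower at 48 h, against 8.51%. Because the members were chosen with these values known, nothing is read from their counts. These counts were added after the values were seen.

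Germline genes outside the 9, from lists of meiotic, piRNA-pathway and further germline genes, had the same lean in part. At 2 h 24 of 55 were at least 2-fold below 0 h and at 48 h 22 of 55 were, with medians of -0.82 and -0.68 on the log2 scale, against -0.18 and -0.06 over all genes. Among genes with a mean under 200 reads, where 19.5% of all genes were at least 2-fold lower at 2 h and 18.9% at 48 h, the counts were 20 and 21 of 43. Measured from the 2 h library, 8 of 55 were at least 2-fold lower at 48 h and 10 were at least 2-fold higher, against 8.51% and 16.7% of all genes, and their median log2 ratio was -0.15, against 0.13 over all genes. The difference from all genes was thus smaller when measured from 2 h than from 0 h, and whether the 2 differ was not tested.

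**Figure D5:**
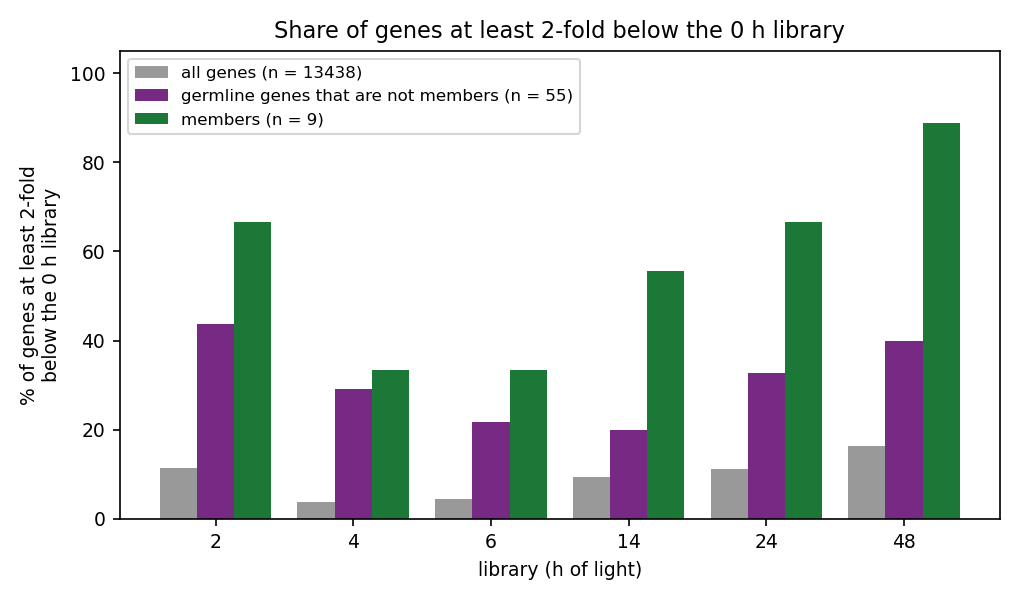
Percent of genes at least 2-fold below the 0 h library (y axis) in each later library (x axis, labelled hours), for all genes, 55 germline genes outside the 9 and the 9 members. The members' bars go from 33.3% at 4 and 6 h to 88.9% at 48 h, and those of the other germline genes reach 43.6% at 2 h, where 24 of 55 lie.

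In a trend fit against log2 hours, limma on log2 of the signal plus 1 called 19 rising (0.296%) and 4 falling genes (0.0624%) of 6411 at an adjusted p under 0.05. Of the 72 other germline genes 13 were tested and 0 were called. At an unadjusted limma p under 0.05 were 2 of the 13 and 1381 of all 6411 genes. On recovered reads, limma-voom tested 55 of the 72. At an unadjusted limma-voom p under 0.05 were 14 of the 55 and 3164 of all 13438 genes, which are similar shares. After adjustment it called 0 rising and 3 falling of the 55, against 2.26% of all genes rising and 0.804% falling. The 3 were Spata22, a meiotic recombination factor (log2 change -3.92 ± 0.61, limma-voom adjusted p 0.0129), Smc1b, a meiotic cohesin (-3.33 ± 0.62, limma-voom adjusted p 0.0220), and Hormad1, a protein of unpaired chromosome axes (-2.55 ± 0.68, limma-voom adjusted p 0.0446). They rest on few reads: 86 at 0 h and 4 at 48 h for Spata22, 132 and 12 for Smc1b, and 258 and 36 for Hormad1. None of the 3 was called without the 0 h library or without the 48 h library, though their changes stayed negative in both fits. Hormad1 was also not called without the 4, 6 or 14 h library. Without 0 h the count turned to 3 rising (Rec8, Sohlh2 and Sycp2) and 0 falling, without 48 h it was 0 in both directions, and without 24 h it was 1 rising (Rec8) and 4 falling. With the GC trend removed, Spata22 alone of the 3 falling genes was called (limma-voom adjusted p 0.0298). Of the 9 members, 6 reached the mean signal of 1, with 0 called on the signal (0.359% of genes in either direction), 2 at an unadjusted p under 0.05, and on reads 2 of 9, Stra8 and Dppa2. Dppa2 lost its call once the GC trend was taken out, and also without the 0, 2, 4, 14 or 48 h library. Nothing is read from these counts, since the members were chosen with their values known.

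High-level genes of the germline lists did not pass the test over all 7 libraries. By mean signal the highest were Rpl10l (157), Tuba3a (11.8), Psmc3ip (6.24) and Trip13 (3.14). In that order their fitted changes on the signal were 0.04 ± 0.25, -0.02 ± 0.41, -0.40 ± 0.14 and -0.47 ± 0.24. Rec8, a meiotic cohesin, read 1.64, 0.962, 1.38, 1.68, 1.79, 1.64 and 6.84, and Psmc3ip, a recombination cofactor, 7.67, 6.06, 6.73, 6.43, 5.20, 6.404 and 5.17. Among 9 tested genes of primordial germ cells 1 was called on reads, Dppa5a, an RNA-binding protein of pluripotent cells. It fell (log2 change -1.25 ± 0.31, limma-voom adjusted p 0.0448) and was not called on the signal. Of all genes 0.804% were called falling on reads. On reads most of that list went the other way: fitted changes were negative for 3 of the 9, with a median of 0.69. This lean was weaker in the other fits. Correcting the reads for GC content left 4 of the 9 negative (median 0.35), and on the signal 4 of 8 were negative (median 0.27). In each of these fits 0 genes of the list were called rising. At 48 h, 5 of the 9 were at least 2-fold above 0 h and 1 was at least 2-fold below. Over all genes these shares were 15.8% and 16.4%. In the 2-cell-like list 4 Zscan4 genes were tested on reads. All 4 were highest at 0 h, where 20.7% of 13438 genes were, but none was called. At an unadjusted limma-voom p under 0.05 were 2 of the 4, against 3164 of all 13438 genes. Stretches shared between the 4 were not looked for, so they may not be 4 separate observations.

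Of the repressors, 0 of 15 PRC1.6 genes were called on reads by limma-voom and 0 of 14 on the signal by limma. At an unadjusted p under 0.05 were 3 on reads and 3 on the signal. Over all genes these were 3164 of 13438 and 1381 of 6411. Of 12 genes of DNA methylation and H3K9 silencing 2 rose on reads, against 2.26% of all 13438 genes. Dnmt3l, the cofactor of new DNA methylation, read 0.703, 1.04, 1.05, 1.33, 1.30, 3.19 and 4.43 (log2 change 2.76 ± 0.48, limma-voom adjusted p 0.0112), and the methyltransferase Dnmt3b rose by 1.75 ± 0.41 (limma-voom adjusted p 0.0450, or 0.098 with the GC trend removed). In the retinoic acid list, 1 of 13 tested genes rose, against the same 2.26% of all genes: Crabp2, a retinoic acid binding protein (3.96 ± 0.97, limma-voom adjusted p 0.0202). Without the 48 h library limma-voom called only 4 rising and 3 falling of all 13082 genes then tested. Whether these changes bear on the members was not tested.

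The libraries also differed in how GC-rich transcripts were represented. The median deviation of the 245 most GC-rich genes minus that of the 245 most GC-poor came to -0.62 on the log2 scale at 0 h and 1.08 at 48 h. Dazl and Sycp3 have the lowest transcript GC content of the 9, at 37.0% and 37.4%, and Tex19.1 the highest, at 52.6%. With a GC trend removed the fitted change of Dazl was 0.25 when the trend was subtracted on the log2 scale and 0.01 when it was divided out of the signal. For Sycp3 the same 2 versions gave 0.33 and -0.35, against -0.49 ± 0.18 without either. Mael went from -0.25 ± 0.08 to -0.04 and -0.22, and Dppa2 from -1.41 ± 0.32 to -1.02 and -1.05. Stra8 (-1.48 and -1.46) and Tex19.1 (-2.49 in both) kept their direction. Dppa4, D1Pas1 and Dppa3 also kept theirs and moved by less than their SE. The log2 ratio of 48 h to 0 h of Dazl, on the signal plus 1, went from -0.85 to -0.02 with the trend divided out.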

How the data were processed

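Per the labels' protocols, RNA from an RNeasy kit went into the Lexogen SENSE library kit. The submitters' processing notes name Bowtie2 and mm9; the counting step and its use of strand are not stated there. The deposited table gives another kind of value, an unnamed signal per RefSeq transcript; it behaved as reads per kilobase of genomic span scaled to depth, since 77.1% to 78.8% of values of 2 to 20 reads lay within 0.1 of a whole read (20% by chance). Spans came from GRCm38, so read numbers are approximate. Of 30673 rows, 3320 start-site rows were at 0 throughout and 695 further placements were left out; the highest-mean row stood for each gene. With 1 library at each time, p-values rest on the scatter around a line (5 residual degrees of freedom). Fits used limma 3.58.1 in R 4.3.3 on log2(signal + 1), with a mean of at least 1, against log2(hours + 1), with Benjamini-Hochberg adjustment over all tested genes, and limma-voom on reads (at least 10 reads in 3 libraries). Both were tested on simulated data. Fitted changes run from 0 to 48 h. This unit was not foreseen, so the log-scale test of the design was kept. Members, lists, tests and the rule for named genes (all members, called list genes, high-level list genes and the genes most alike in course) were chosen with earlier results of these data known. Added after values were seen were the 2-fold counts, the counts of highest and lowest libraries, the 200-read group, the olfactory receptor genes, the shared 50-base stretches, the paralogue alignments (blastn 2.17.0), the read fits without single libraries and 3 GC fits. The GC trend was a spline with 5 degrees of freedom over genes with a mean of at least 5. It was first subtracted on the log2 scale; after that result was seen, a second version dividing the signal was added because subtraction moves genes near 0 too far, and both are reported. Promoters are from RefSeq (GRCm38.p6), with an entry for 6 members.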

Additional observations from a re-analysis of the deposited data

How the results depend on the processing

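No paired analysis was possible because each time has 1 library. With limma on the signal, 19 genes rose and 4 fell over the course; the counts were 0 and 0 with no filter on low values, 0 and 0 with a pseudocount of 5, 36 and 7 with a pseudocount of 0.1, 162 and 28 with hours in place of log2 hours, and 1 fell with a mean of at least 5. Removing the GC trend gave 0 and 0 by subtraction on the log2 scale, and 10 rising by division. On reads limma-voom called 304 and 108, then 227 and 74 with the GC trend of the signal removed and 237 and 86 with a GC trend fitted on the reads, the version run first. Leaving out single libraries gave 1 to 54 rising and 0 to 25 falling, with both maxima without the 0 h library. Quantile normalization, TMM scaling and sums over transcript rows kept both counts within 1.5 times. Among other germline genes 0 rose and 0 fell; 1 rose with hours, 0 to 1 rose and 0 fell without single libraries, and 3 fell on reads, or 1 under either GC version on reads. The read fits without single libraries gave 0 to 3 rising and 0 to 4 falling. Without 0 h, 3 rose and 0 fell, and without 48 h, 0 rose and 0 fell, so the calls rest on both libraries. Without 0 h the changes of Spata22, Smc1b and Hormad1 were -4.19, -2.94 and -1.57, still negative though not called.

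The median fitted change of the 9 was -0.63, and was -1.01 with a pseudocount of 0.1, -1.51 on reads, and -1.18 under both GC versions on reads; without single libraries it ran from -0.82 to -0.36. The median log2 ratio of 48 h to 0 h, -1.05, was -1.70 with a pseudocount of 0.1 and -0.47 with 5. Changes of sign were seen for Dazl (0.253 by GC subtraction, 0.0150 by GC division, 0.0898 with the GC trend fitted on reads, 0.136 without 0 h), Sycp3 (0.330 by GC subtraction), Dppa3 (-0.130 without 48 h) and D1Pas1 (0.163 without 0 h). Without single libraries the fitted change ran from -0.820 to 0.136 for Dazl, from -0.130 to 0.891 for Dppa3 and from -1.36 to 0.163 for D1Pas1. The cause was not tested. Genes of few reads, such as Sycp3 with 9 at 14 h, are limited by depth.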
